A study of Mus musculus with 2 samples.

Results

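This report describes 7 pump genes in the adrenal glands of newborn mice: the sodium-potassium pump beta subunit genes Atp1b1, Atp1b2 and Atp1b3, and the plasma membrane calcium pump genes Atp2b1, Atp2b2, Atp2b3 and Atp2b4. The members were taken by gene symbol from the annotated gene tables, and all 7 were found among 55536 annotated genes. The only group consisted of adrenal glands from 4-day-old female mice of the F1 hybrid strain B6CASTF1/J, with no treatment and no engineered allele named in the labels, and it had 2 biological replicates. Each library was made from 300 ng of total RNA depleted of ribosomal RNA, carried ERCC spike-in RNAs and was made with a kit that keeps the strand. With 1 group, no conditions could be compared, so the results are levels, shares between related genes, transcript forms and the spread between the replicates.

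The labels disagree about the animal behind replicate 2: the text on its library names the same animal number as replicate 1, the text on its tissue a different one, and both samples point to a shared donor record. The spread between the replicates measures differences between these 2 samples, which may be technical in part. Whole adrenal tissue was used, so a larger number of cells of a type and more RNA per cell cannot be told apart.

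The sodium-potassium pump carries sodium out of the cell and potassium in. It is built of a catalytic alpha subunit and a beta subunit, a glycoprotein that the alpha subunit needs to fold and to reach the plasma membrane, and small FXYD proteins adjust its rate. The plasma membrane calcium pumps each work as 1 catalytic chain, which calmodulin switches on and which needs basigin or neuroplastin as a partner, and they push calcium out of the cell after a signal. In the adrenal gland, potassium and calcium govern aldosterone secretion by the zona glomerulosa, and calcium entry triggers catecholamine release from chromaffin cells. In humans, mutations of ATP2B3 are found in aldosterone-producing adenomas.

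The expected counts of annotated genes summed to 31551632 in replicate 1 and 32628038 in replicate 2, and ERCC RNAs held 1.21% and 1.24% of all TPM (a level per transcript length, scaled to the same total in each library). Summed marker levels were checked for 12 cell and tissue lists. The 7 steroid cortex markers, led by Hsd3b1 and Cyp21a1, added up to 6068 and 6684 TPM in replicates 1 and 2. The 8 chromaffin markers, led by Chga and Chgb, summed to 1893 and 2212 TPM, and the 7 zona glomerulosa markers, led by Dab2 and Cyp11b2, to 373 and 325 TPM, so the defining cells of the labelled tissue were present. Other adrenal lists were near each other in the 2 libraries: neurons (Stmn2, Tubb3) at 165 and 156 TPM, Schwann cells (Mbp among them) at 50.3 and 42.0 TPM, endothelium (Egfl7, Plvap) at 279 and 262 TPM, and smooth muscle (Acta2, Tagln) at 59.2 and 61.1 TPM.

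Markers of tissues outside the adrenal gland, and of blood, differed between the 2 libraries. Replicate 1 had more of the 7 pancreas markers (Ctrb1, Pnliprp1), at 4211 TPM against 0.68 TPM in replicate 2, where 4 of the 7 were at 0. It likewise had more of the 8 kidney tubule markers (Slc34a1, Lrp2), at 105 TPM against 11.1 TPM, with 8 of 8 higher. The 6 erythroid markers (Hba-a1, Hbb-bs) added up to 5222 TPM in replicate 1, against 3793 TPM in replicate 2. In the other direction, replicate 1 had 242 TPM of the 5 skeletal muscle markers (Acta1, Tnnt3) against 1548 TPM in replicate 2, and 91.3 TPM of the 4 liver markers (Alb, Apoa1) against 366 TPM.

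All 7 genes were at 1 TPM or more in both replicates, and together they held 231 TPM in replicate 1 and 200.1 TPM in replicate 2. By mean TPM the order was Atp1b1, Atp1b3, Atp2b1, Atp1b2, Atp2b4, Atp2b3 and Atp2b2. Neighbouring genes in that order were set apart where the mean log2 ratio of their TPM exceeded its SD over the 2 replicates, which is a description and not a test. Neither Atp1b1 over Atp1b3 nor Atp2b1 over Atp1b2 met that condition, and the other 4 neighbouring pairs did.

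**Figure D1:**
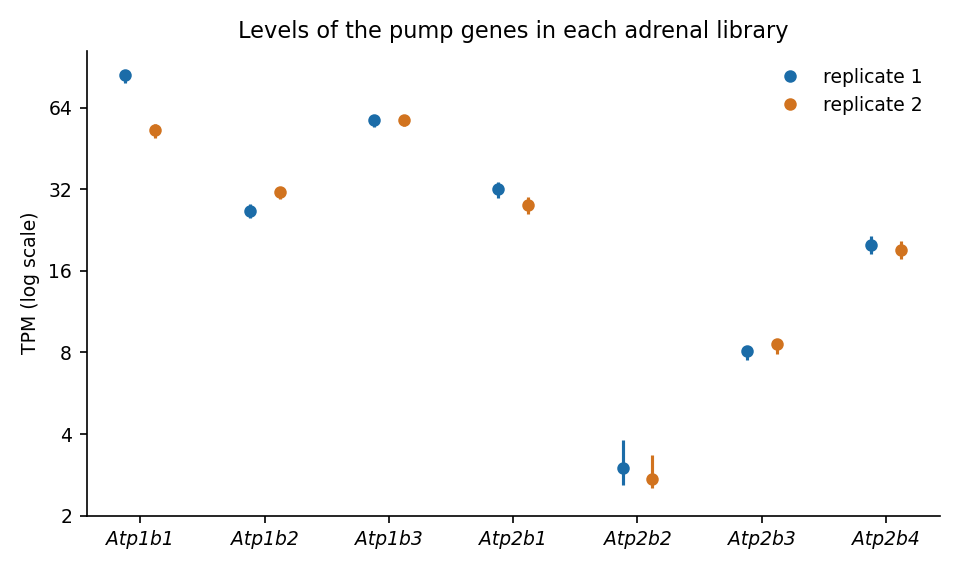
TPM (log scale) of the 7 pump genes in replicate 1 and replicate 2, with the authors' interval for each value as a vertical line (hidden where it is shorter than the point). Atp1b1 shows the widest gap between the replicates, at 84.2 and 53.0 TPM, and Atp2b2 is the lowest gene in both, at 3.01 and 2.73 TPM.

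Atp1b1 encodes beta 1, a broadly used beta subunit and the main one of kidney epithelium. The gene (ENSMUSG00000026576.12) lies on the minus strand of chromosome 1, bases 164437109 to 164458355 of mm10. It had 84.2 TPM in replicate 1 and 53.0 TPM in replicate 2, a mean of 68.6 ± 22.1 TPM (SD, n = 2), from expected counts of 5696 and 3625. The authors' intervals for the 2 values were 79.0 to 87.0 TPM and 49.5 to 55.6 TPM, and they did not overlap. Here and for the other genes, each interval belongs to 1 library and holds no spread between replicates. With its mean of 68.6 TPM the gene ranked 921st among protein-coding genes.

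Atp1b3 encodes beta 3, also widely expressed, and it was the steadiest of the beta genes (ENSMUSG00000032412.8, minus strand of chromosome 9, bases 96332655 to 96364442 of mm10). It had 57.4 TPM in replicate 1 and 57.6 TPM in replicate 2, a mean of 57.5 ± 0.163 TPM (SD, n = 2). Atp1b1 exceeded Atp1b3 by 0.55 on the log2 scale of TPM in replicate 1 and was 0.12 below it in replicate 2, so the order of the top 2 genes turned round between the replicates. In the second quantification, which was made from the read files, Atp1b1 was the higher gene in both replicates, by 1.07 and 0.35 on the log2 scale.

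Atp1b2 encodes beta 2, known as the adhesion molecule on glia for its role between neurons and glial cells. The gene (ENSMUSG00000041329.13) lies on the minus strand of chromosome 11, bases 69599736 to 69605942 of mm10. It had 26.6 TPM in replicate 1 and 31.2 TPM in replicate 2, a mean of 28.9 ± 3.24 TPM (SD, n = 2), and authors' intervals that did not overlap (25.0 to 28.1 TPM and 29.5 to 32.5 TPM). Its level was below those of Atp1b1 and Atp1b3 in both replicates. The log2 ratio of Atp2b1 over Atp1b2 was 0.27 in replicate 1 and -0.16 in replicate 2. In the second quantification it was -0.04 and -0.62, so Atp1b2 was the higher of the 2 genes in both replicates there.

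Taken as a family, the 3 beta genes added up to 168 TPM in replicate 1, against 142 TPM in replicate 2. Atp1b1 held 50.0% and 37.3% of that sum, a mean of 43.7 ± 8.97% (SD, n = 2). Atp1b3 held 34.1% and 40.6%, and Atp1b2 held 15.8% and 22.0%. The leading beta gene was therefore Atp1b1 in replicate 1 and Atp1b3 in replicate 2.

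**Figure D2:**
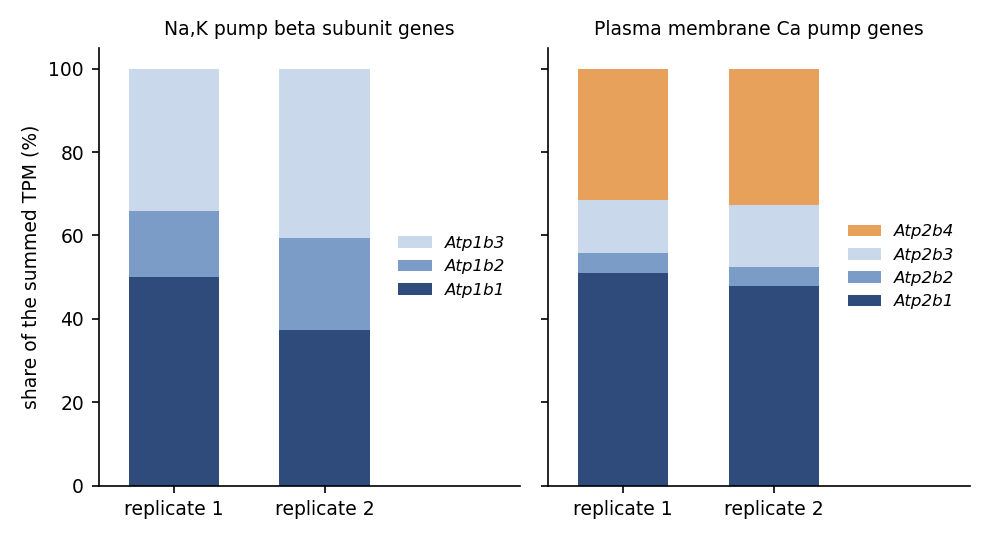
Share (%) of the summed TPM of the beta subunit genes, on the left, and of the plasma membrane calcium pump genes, on the right, in replicate 1 and replicate 2. Atp1b1 takes 50.0% in replicate 1 and 37.3% in replicate 2, while Atp2b1 takes 50.9% and 47.8%.

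Atp2b1, which encodes the calcium pump that nearly every cell type makes, led the calcium pump genes. It lies on the plus strand of chromosome 10, bases 98914406 to 99026143 of mm10 (ENSMUSG00000019943.10). Its level was 32.1 TPM in replicate 1 and 27.9 TPM in replicate 2, a mean of 30.0 ± 2.98 TPM (SD, n = 2). The authors' intervals overlapped at their ends, at 29.8 to 34.1 TPM and 26.0 to 30.0 TPM.

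Atp2b4, the other widely made calcium pump gene, encodes a pump known from the red cell membrane and from muscle (ENSMUSG00000026463.17, minus strand of chromosome 1, bases 133699457 to 133801041 of mm10). It had 19.9 TPM in replicate 1 and 19.1 TPM in replicate 2, a mean of 19.5 ± 0.537 TPM (SD, n = 2). Atp2b1 was above it by 0.69 and 0.55 on the log2 scale of TPM in replicates 1 and 2. Expected counts, which are not corrected for transcript length, put the 2 genes side by side: Atp2b1 had 3940 and 3615, and Atp2b4 had 3808 and 3816.

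Atp2b3 and Atp2b2 encode the fast pumps best known from nerve cells, Atp2b2 also from the hair cells of the inner ear. Atp2b3 (ENSMUSG00000031376.15, plus strand of chromosome X, bases 73503086 to 73571005 of mm10) had 8.08 TPM in replicate 1 and 8.56 TPM in replicate 2, a mean of 8.32 ± 0.339 TPM (SD, n = 2). Atp2b2 (ENSMUSG00000030302.16, minus strand of chromosome 6, bases 113743831 to 114042613 of mm10) had 3.01 and 2.73 TPM, a mean of 2.87 ± 0.198 TPM (SD, n = 2), from expected counts of 504 and 540. Atp2b3 was above Atp2b2 by 1.42 and 1.65 on the log2 scale of TPM, and below Atp2b4 by more than the replicate spread, since Atp2b4 exceeded it by 1.30 and 1.16.

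The calcium pump genes added up to 63.1 TPM in replicate 1, against 58.3 TPM in replicate 2, and their shares moved less than those of the beta genes. Atp2b1 held 50.9% and 47.8% of the sum, a mean of 49.4 ± 2.17% (SD, n = 2). The share of Atp2b4 was 31.5% and 32.8%, that of Atp2b3 12.8% and 14.7%, and that of Atp2b2 4.77% and 4.68%. The order Atp2b1, Atp2b4, Atp2b3, Atp2b2 was the same in both replicates.

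How far a gene differed between replicate 1 and replicate 2 was measured as the log2 ratio of its expected counts (replicate 1 over replicate 2) after TMM scaling, a factor per library that sets most genes level, with a 95% exact counting interval. A gene was called when the ratio reached 1.5-fold at a mean count of at least 100. This is a rule of size, since 1 library on each side gives no test. Across 13734 genes that met the count minimum, 5.53% were called, 3.14% higher in replicate 1 and 2.4% higher in replicate 2. All 7 pump genes met the minimum and 1 was called, Atp1b1. The median log2 ratio of the 7 was -0.05, beside -0.01 over all genes tested, with 3 higher in replicate 1 and 4 higher in replicate 2 under this scaling.

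Atp1b1 was 1.59-fold higher in replicate 1 than in replicate 2, a log2 ratio of 0.67 with a counting interval of 0.61 to 0.73. Of all genes tested, 4.73% had a ratio at least as large in either direction. Over 6 scalings of the counts or levels the log2 ratio lay between 0.63 and 0.74. The pancreas, kidney tubule and erythroid lists were also higher in replicate 1 (4211, 105 and 5222 TPM, against 0.68, 11.1 and 3793 TPM in replicate 2), and their part in the difference was not tested. Nme7 overlaps Atp1b1 on the opposite strand and had 393 and 349 counts in replicates 1 and 2, fewer than 1 for every 10 of Atp1b1.

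Atp1b2 moved the other way, with a log2 ratio of -0.30 and a counting interval of -0.39 to -0.22, and did not reach 1.5-fold. Atp2b1 had a log2 ratio of 0.14 with an interval of 0.07 to 0.20. For Atp1b3 (-0.05, interval -0.12 to 0.02), Atp2b2 (-0.09, interval -0.26 to 0.09), Atp2b3 (-0.12, interval -0.23 to 0.004) and Atp2b4 (0.01, interval -0.05 to 0.08), the counting interval included 0. Atp1b3 and Atp2b2 became 0.02 and 0.14 under scaling by spike-in counts and by deposited TPM, and Atp2b4 became -0.003 with DESeq2 size factors. Those size factors were 1 in both libraries, so that setting made no correction for depth. No direction is given for these 3 genes.

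**Figure D3:**
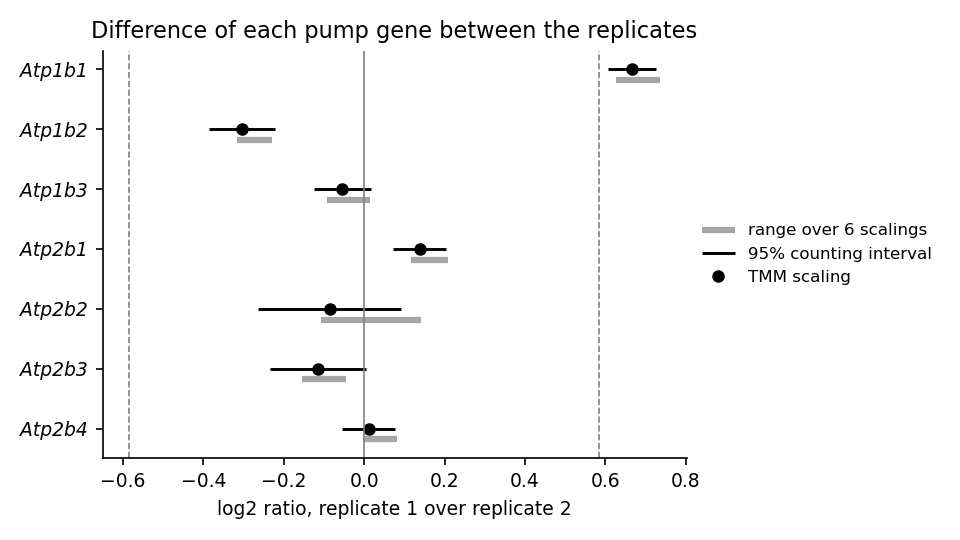
Log2 ratio of replicate 1 over replicate 2 for the 7 pump genes with TMM scaling (points), its 95% counting interval (black lines) and its range over 6 scalings (grey lines); dashed lines mark 1.5-fold. Atp1b1 lies beyond the dashed line at 0.67, and the other 6 genes lie between -0.30 and 0.14.

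The partners of these genes came from a list of 35 other pump genes, all of which were found, 25 of them at 1 TPM or more and 15 at 10 TPM or more in both replicates. Among the FXYD genes, Fxyd1 (phospholemman) had 50.2 TPM in replicate 1 and 66.1 TPM in replicate 2, Fxyd6 had 48.9 and 49.6 TPM, and Fxyd5 had 10.7 and 12.8 TPM. Fxyd2, the gamma subunit of the kidney pump, had 42.6 TPM in replicate 1 and 4.52 TPM in replicate 2. The partners that plasma membrane calcium pumps need were high in both libraries: Bsg (basigin) had 183 and 188 TPM, and Nptn (neuroplastin) had 63.9 and 58.9 TPM. So were the calmodulin genes Calm2 (202 and 200.3 TPM) and Calm3 (123 and 125 TPM).

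Other routes for clearing calcium were present beside the Atp2b genes. Atp2a2, the widely made pump of the endoplasmic reticulum, had 70.0 TPM in replicate 1 and 71.8 TPM in replicate 2. Atp2c1, the Golgi pump, had 24.3 and 26.0 TPM, and Slc8a1, a sodium-calcium exchanger, had 17.9 and 15.6 TPM. Atp2a1, the reticulum pump of fast skeletal muscle, had 20.3 TPM in replicate 1 and 115 TPM in replicate 2. Counting Atp2a1, the summed reticulum pump level was 1.54 times the summed Atp2b level in replicate 1 and 3.31 times in replicate 2.

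Of the 35 genes, 24 met the count minimum and 7 were called, 2 higher in replicate 1 and 5 higher in replicate 2. Their median log2 ratio was -0.07, beside -0.01 over all genes tested, of which 5.53% were called, 3.14% higher in replicate 1 and 2.4% higher in replicate 2. Higher in replicate 1 were Fxyd2 (log2 ratio 3.10) and Nkain1 (0.62), whose product binds beta 1; Nkain1 had 4.66 and 2.90 TPM. Among those higher in replicate 2 were Sln, the sarcolipin of muscle (-3.12), Atp1b4 (-2.61), Atp2a1 (-2.58) and the exchanger gene Slc8a3 (-0.72). Atp1b4, which in placental mammals makes a muscle protein of the nuclear membrane and no pump subunit, had 3.69 TPM in replicate 1 and 21.9 TPM in replicate 2. Sln had 1.97 and 16.9 TPM, and Slc8a3 had 0.78 and 1.28 TPM. The counting intervals of Nkain1 (0.24 to 1.00) and Slc8a3 (-1.09 to -0.37) also took in ratios below 1.5-fold. The skeletal muscle markers stood at 242 TPM in replicate 1, against 1548 TPM in replicate 2, with 5 of 5 higher in replicate 2, and the kidney tubule markers at 105 and 11.1 TPM. The part of these tissues in the 7 calls was not tested.

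**Figure D4:**
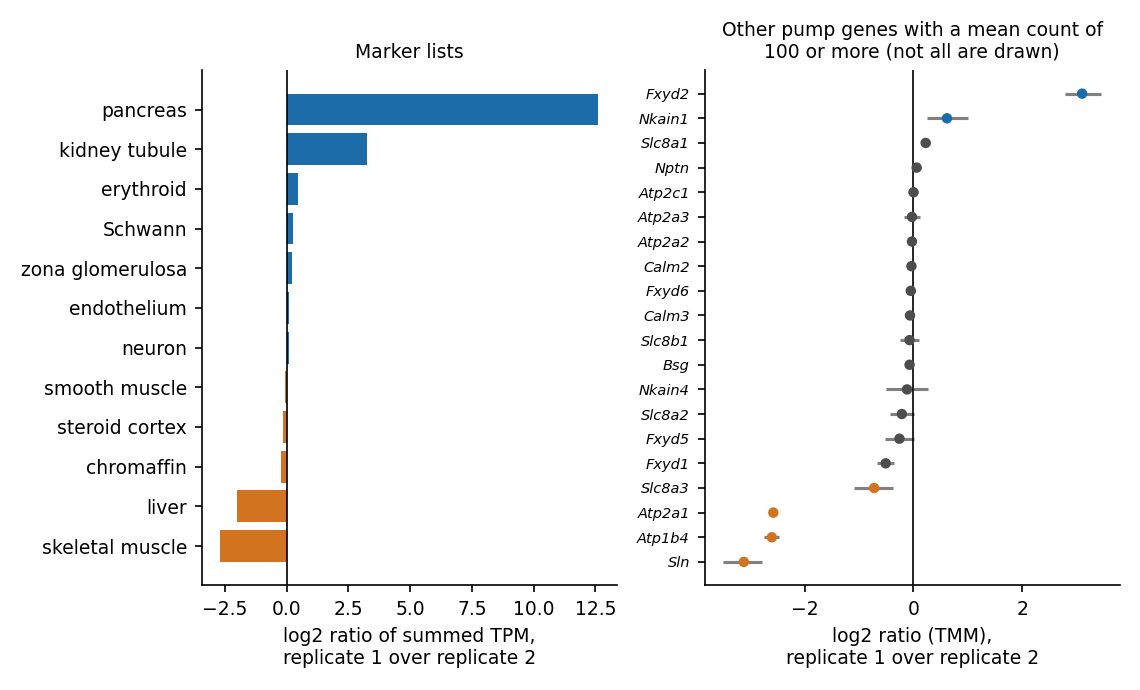
Log2 ratios of replicate 1 over replicate 2 for the summed TPM of 12 marker lists (left) and for 20 of the 24 other pump genes above the count minimum of 100 (right, with counting intervals); on the right, blue points are called higher in replicate 1, orange points called higher in replicate 2 and grey points not called. Pancreas and kidney tubule lists lie toward replicate 1 with Fxyd2, and the skeletal muscle list toward replicate 2 with Sln, Atp1b4 and Atp2a1.

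The 7 genes have 42 annotated transcripts, 25 of them protein-coding, and 32 had a level above 0 in both replicates. Each beta gene was carried mainly by 1 full-length transcript. Atp1b1-201, coding for 304 residues, held 85.6% of the gene's TPM in replicate 1 and 83.1% in replicate 2, at 72.0 and 44.0 TPM. Atp1b2-201 (290 residues) held 86.6% and 88.1%, and Atp1b3-201 (278 residues) held 96.2% and 97.5%.

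The second quantification split 2 of these genes differently. It gave Atp1b1-201 59.1% and 58.9% and the partial coding transcript Atp1b1-203 37.9% and 38.8%, where the tables made from alignments gave Atp1b1-203 10.7% and 13.9%. It gave Atp1b2-201 55.9% and 54.3%, and the whole of Atp1b3, 100% in both replicates, to Atp1b3-201. TPM weights each read by the inverse of its transcript's length, and Atp1b1-203 has 628 bases against 2580 in Atp1b1-201. The second quantification gave Atp1b1 202 and 125 TPM in replicates 1 and 2, but all 7 pump genes were higher there. Atp1b3, which it gave to 1 transcript, averaged 97.2 TPM in the second quantification against 57.5 TPM in the gene tables, and Atp2b4 34.7 against 19.5 TPM. Atp1b1 averaged 164 TPM there against 68.6 TPM in the gene tables, and Atp1b2, which it also split differently, 67.9 against 28.9 TPM. The gaps of Atp1b1 and Atp1b2 were larger as ratios, and the part of the transcript split in them was not tested.

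The calcium pump genes are spliced at a place known as site C, inside the calmodulin-binding part of the tail. Skipping the site C exon gives the b forms, which end in a motif bound by PDZ proteins. Including it in a length that is not a multiple of 3 shifts the reading frame and gives the a forms, whose calmodulin-binding region is altered and whose tail is shorter. For the annotated transcripts this showed in Atp2b3, where the form with the exon codes for 1173 residues and the form without it for 1220.

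The 4 site C exons are shown because the calcium pump genes differed in how often they used them. They are read from the GENCODE M21 transcripts, 5′ to 3′ on the coding strand, and capitals mark the 25 positions among the first 87 bases, counted from the exon's start with no gaps, at which all 4 genes have the same base. Their places in mm10 are chr10:99019278-99019431 on the plus strand for Atp2b1, chr6:113755217-113755388 on the minus strand for Atp2b2, chrX:73559864-73560017 on the plus strand for Atp2b3 and chr1:133711642-133711822 on the minus strand for Atp2b4. All of their bases are coding in the transcripts they were read from.
Atp2b1 site C exon: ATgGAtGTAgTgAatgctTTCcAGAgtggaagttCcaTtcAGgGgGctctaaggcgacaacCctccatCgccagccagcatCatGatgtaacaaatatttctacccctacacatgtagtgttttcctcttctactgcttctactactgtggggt
Atp2b2 site C exon: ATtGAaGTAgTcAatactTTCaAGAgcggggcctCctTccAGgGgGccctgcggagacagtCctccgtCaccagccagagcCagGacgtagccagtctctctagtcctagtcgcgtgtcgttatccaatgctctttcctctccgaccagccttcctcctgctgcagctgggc
Atp2b3 site C exon: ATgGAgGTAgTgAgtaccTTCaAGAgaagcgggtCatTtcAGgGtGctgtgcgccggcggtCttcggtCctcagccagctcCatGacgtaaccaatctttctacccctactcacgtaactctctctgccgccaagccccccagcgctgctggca
Atp2b4 site C exon: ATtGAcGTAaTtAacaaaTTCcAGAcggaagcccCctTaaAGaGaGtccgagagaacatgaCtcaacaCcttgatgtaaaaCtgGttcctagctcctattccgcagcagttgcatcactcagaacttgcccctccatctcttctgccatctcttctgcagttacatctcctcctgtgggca

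Over those first 87 bases, Atp2b1 shared 62 bases with Atp2b2 (71.3%) and 58 with Atp2b3 (66.7%), and Atp2b2 shared 61 with Atp2b3 (70.1%). The exon of Atp2b4 shared 35 bases with that of Atp2b1 (40.2%), 41 with that of Atp2b2 (47.1%) and 32 with that of Atp2b3 (36.8%). The exons are 154, 172, 154 and 181 bases long in the order printed. An annotated shorter form of the Atp2b1 exon, in Atp2b1-209, keeps its first 87 bases and with them the reading frame. Other annotated forms at the site are not printed: a 191-base version of the Atp2b4 exon with 186 coding bases in Atp2b4-201, and a further exon of 127 bases, 5 of them coding, in Atp2b2-206.

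Among transcripts that reach the shared exon before site C, Atp2b3 was mainly of the form with the exon and the other 3 genes mainly of the form without it. Atp2b3-203, with the exon, held 84.8% of that TPM in replicate 1 and 79.7% in replicate 2, a mean of 82.2 ± 3.61% (SD, n = 2). Atp2b3-202, without it, held 0% and 5.14%, and Atp2b3-201, which ends differently and codes for 1144 residues, held 15.2% in each. The share with the exon was 12.6% and 10.3% for Atp2b1 (11.5 ± 1.68%, both exon lengths pooled), 21.2% and 14.6% for Atp2b2 (17.9 ± 4.61%), and 15.2% and 17.5% for Atp2b4 (16.3 ± 1.63%; SD, n = 2 for each). The lowest Atp2b3 value, 79.7%, was above the highest of the others, 21.2%; with 1 group this is a description and not a test.

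The second quantification kept this arrangement with less distance. It gave shares with the exon of 65.4% and 67.4% for Atp2b3, 17.8% and 15.9% for Atp2b1, 29.0% and 19.0% for Atp2b2, and 18.0% and 16.7% for Atp2b4. The form of Atp2b3 without the exon held 10.4% and 9.89% there, and the form with the other end 24.2% and 22.7%. The shares come from the TPM of whole transcripts and not from reads across the exon. The estimates rest on few reads for some forms: the Atp2b1 forms with the exon had expected counts of 87.3 and 66.3, and both are annotated as partial transcripts. The frame-keeping Atp2b1-209 made up 45.8 of these counts in replicate 1 and 0 in replicate 2. These 2 partial forms have 1404 and 1460 bases. Atp2b1-201, without the exon, has 7130 bases and had expected counts of 3185 and 2990 in replicates 1 and 2. The Atp2b1 share therefore depends on the division by transcript length. The Atp2b2 form with the exon had expected counts of 113 and 81.6 and is annotated as a target of nonsense-mediated decay.

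**Figure D5:**
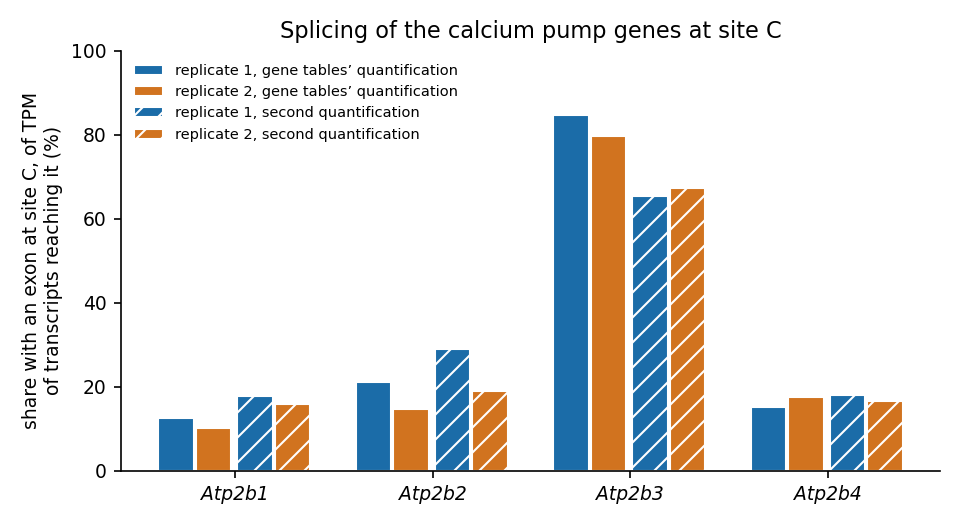
Share (%) of transcripts with an exon at site C in the TPM of those transcripts of each calcium pump gene that reach the exon before it, in replicates 1 and 2, by the gene tables' quantification (plain bars) and the second quantification (hatched bars). Atp2b3 stands at 65.4% to 84.8%, and the other 3 genes lie between 10.3% and 29.0%.

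Full-length forms of the calcium pumps led the remaining transcripts. Atp2b1-201, coding for 1220 residues and lacking the site C exon, held 45.8% of its gene's TPM in replicate 1 and 47.9% in replicate 2, and the remainder went to partial or non-coding transcripts, led by Atp2b1-208 (18.6% and 14.9%) and Atp2b1-207 (12.5% and 14.6%). Atp2b4-207, coding for 1205 residues without the site C exon, held 53.0% and 51.7%. Atp2b4-206, which codes for a chain of the same length, held 11.6% and 11.2%, and the short non-coding Atp2b4-204 held 21.7% and 22.2%, from expected counts of 64.9 and 65.9. Atp2b4-203, the main form with the site C exon (1172 residues), held 11.6% and 10.2%.

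A second place of splicing, site A, lies in the first large loop of the pump inside the cell. Atp2b2 alone among the 4 genes has annotated full-length forms that differ there: its 3 short exons are all in Atp2b2-202 and in none of the other 4 full-length transcripts. With all 3 exons the gene makes the w form, known in other systems for reaching the apical membrane. They are printed in lower case throughout, 5′ to 3′ on the coding minus strand, from chr6:113803747-113803779, chr6:113802486-113802545 and chr6:113797110-113797151 of mm10.
Atp2b2 site A exon 1: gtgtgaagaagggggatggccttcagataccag
Atp2b2 site A exon 2: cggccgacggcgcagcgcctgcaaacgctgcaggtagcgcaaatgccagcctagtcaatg
Atp2b2 site A exon 3: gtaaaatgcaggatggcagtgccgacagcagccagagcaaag

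These exons are 33, 60 and 42 bases long and wholly coding, and each length is a multiple of 3, so the reading frame is kept. Atp2b2-202, which holds them, codes for 1243 residues, and Atp2b2-201, which lacks them, for 1198. Atp2b2-202 held 38.6% of the TPM of the full-length forms in replicate 1 and 29.3% in replicate 2, a mean of 33.9 ± 6.58% (SD, n = 2). The second quantification gave 37.6% and 31.8%. Expected counts of 129 and 99.6 stood behind Atp2b2-202, and Atp2b2-201 had 123 and 200.01, so which of the 2 led the gene differed between the replicates. The matching short exon of Atp2b1 (39 bases), Atp2b3 (42 bases) and Atp2b4 (36 bases) is in every annotated full-length transcript of its gene, so its use could not vary in these tables. For Atp2b1 there is only 1 such transcript, Atp2b1-201.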

How the data were processed

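Total RNA-seq of 2 adrenal libraries was used, 1 group with 2 biological replicates per the labels. The authors deposited gene tables with expected counts, TPM, a posterior mean TPM and bounds of an interval for TPM, made from alignments to the transcriptome of mm10 with annotation M21, per the authors' notes. For transcripts, the authors deposited a matching table with expected counts, TPM and each transcript's percent of its gene. Estimated counts and TPM per transcript from another deposited table, which the authors made directly from reads, were added up by gene and are named the second quantification. The aligner and quantifier behind the tables: not given in the sources used here. Gene counts rested on the authors' handling of reads that fit several transcripts or related genes, which was not rerun.

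The members and all gene lists were chosen with earlier results of these data known. Named were every member, other pump genes at 10 TPM or more in both replicates or past 1.5-fold, and each marker list with its 2 highest genes; a few of these are not reported here. Levels were deposited TPM, with mean and SD. Log2 ratios used expected counts, rounded for the intervals, scaled by TMM (edgeR 4.0.16; factors 1.01 and 0.988) with a prior of 0.5 counts. Intervals were 95% exact (Clopper-Pearson) and cover counting error only. The reads carry no molecular identifiers and may repeat a molecule, so the intervals may be too narrow even for that error. At this depth a count of 0 allows up to 9.51e-06% of counts in replicate 1 and 9.19e-06% in replicate 2 (3 counts). Log2 ratios between genes added 0.01 TPM. Calculations were tested on simulated data. Alternatives were DESeq2 1.42.0 size factors, count sums, spike-in counts, deposited and posterior mean TPM, the second quantification, other thresholds, and each replicate left out. The DESeq2 size factors were 1 in both libraries and so left the counts unscaled.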

Additional observations from a re-analysis of the deposited data

How the results depend on the processing

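No paired analysis was possible because the labels give 1 group. Of 22 alternatives to the 4 main values (the 2 family shares, the count of genes at 1 TPM and the count past 1.5-fold), 20 stayed within the replicate spread or within 1.5 times the count. Several of these could not have moved: with 2 replicates a mean shifts by less than its SD when 1 is left out, all 7 genes were above 1 TPM in each library, and all 7 passed the count filter. By the mean of expected counts, which are not corrected for length, Atp2b4 led the Atp2b genes with 41.2%, beside 40.8% for Atp2b1. In replicate 1 alone Atp2b1 led by counts, with 42.1% against 40.7%, and in replicate 2 Atp2b4 led, with 41.6% against 39.4%. At a 2-fold rule 0 of the 7 genes were called. With 1 replicate left out, the leading Atp1b gene held 40.6% (Atp1b3, without replicate 1) to 50.0% (Atp1b1, without replicate 2), and Atp2b1 held 47.8% to 50.9%. Among alternatives for single genes, pairs, transcripts and splice forms, 68 kept their value within the replicate spread or, for log2 ratios between the replicates, the counting interval, and 31 moved beyond it. The levels of single genes with 1 replicate left out are among the 68 and, as above, could not have moved. Only Atp1b1 was called, so only its log2 ratio could reverse a called direction, and it did not. Some uncalled values changed sign, among them Atp2b2 (-0.09 to 0.14 with deposited TPM). With the second quantification, Atp2b1 over Atp1b2 went from 0.05 to -0.33. The leading Atp2b2 transcript changed there from Atp2b2-202 to Atp2b2-201. All 7 levels moved with the second quantification, to between 5.58 TPM (Atp2b2) and 164 TPM (Atp1b1). The median of all genes lay between -0.02 and 0.06 on the log2 scale over the 6 scalings. With 2 libraries and no second group, differences between them have no test, and low forms such as those of Atp2b2, with 504 and 540 counts for the gene in replicates 1 and 2, are the least precise.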

Other observations

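A pair of pump genes outside the rule for named genes, chosen after their values were seen, differed between the libraries below the count minimum. Atp12a, the non-gastric proton-potassium pump, had 174 counts in replicate 1 and 18 in replicate 2, and Fxyd4, a sodium-potassium pump modulator of the kidney collecting duct, had 29 and 1. Kidney tubule markers added up to 105 TPM in replicate 1, against 11.1 TPM in replicate 2, and their part in these counts was not tested. Atp4b, the beta subunit of the gastric proton pump, had 0 counts in both libraries.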
